A study of Mus musculus with 4 samples.

Results

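Messenger RNA of 10 calcium- and sugar-binding protein genes was followed across 7 immune cell classes in 4 mouse libraries of single cells: the S100 genes S100a8, S100a9, S100a4, S100a6, S100a10 and S100a11, the galectin genes Lgals1 and Lgals3, and the annexin genes Anxa1 and Anxa2. They are 10 of the 31053 genes in the deposited matrices. They were picked by name, with results of these same libraries in view (Lgals1 in splenic NK cells, S100a4 and S100a6 in NK cells of the aged brain), so what follows describes these libraries and supports nothing independently. Each of the 4 libraries stood alone for its group, brain of aged mice, brain of young mice, spleen of aged mice or spleen of young mice, and the cells had been sorted for high surface CD45, a protein of leukocytes. The study concerned immune cells of the aged brain, and the mice's ages are named only as aged and young. For all 4 libraries alike the labels describe tamoxifen injection and a readout of tdTomato-marked NK cells several weeks later; whether that experiment covers these mice was not settled, and no driver of the marker is given. The labels name neuroblasts as the cell type of each library, a name not used here, because the cells were sorted for CD45. How many animals went into a library is not given.

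S100 proteins are small calcium sensors that work as dimers, and several are released by stressed or activated cells as danger signals. S100A8 and S100A9 form calprotectin, an abundant protein of the neutrophil cytoplasm. S100A10 and S100A11 bind annexin A2 and annexin A1, proteins that attach to membranes when calcium is high; annexin A1 also limits neutrophil entry into tissue through formyl peptide receptors. S100A4 and S100A6 are linked to cell movement and the cytoskeleton and are high in effector and memory lymphocytes and in monocytes. Galectins bind sugar chains on glycoproteins: galectin-1 (Lgals1) can dampen T cell responses, and galectin-3 (Lgals3) is typical of monocytes, macrophages and, in microglia, of the damage-associated state.

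The 6 S100 members lie on mouse chromosome 3 (GRCm38, GENCODE M21 annotation), S100a4 at chr3:90603771-90606045, S100a6 at chr3:90612882-90624181 and S100a8 at chr3:90668978-90670035 on the plus strand and S100a9 at chr3:90692632-90695721 on the minus strand. S100a11 (chr3:93520488-93526287) and S100a10 (chr3:93555080-93564643) lie further along the chromosome, on the plus strand. Lgals1 is on chromosome 15, Lgals3 on 14, Anxa1 on 19 and Anxa2 on 9. The promoter windows of 4 S100 members are shown because these chromosome neighbours form a pair that was high together in neutrophils (S100a8 and S100a9) and a pair that parted there (S100a4 and S100a6). They are RefSeq sequences of GRCm38.p6, 250 bases before to 50 after the annotated start, 5′ to 3′ on the gene's own strand, at chr3:90668821-90669120, chr3:90695672-90695971, chr3:90603520-90603819 and chr3:90612644-90612943 in that order. Capitals mark matches, on either strand, to TTGCNNAA (a C/EBP core), GAGGAA or its complement TTCCTC (a PU.1 core) and TATAAA (the TATA box).
S100a8: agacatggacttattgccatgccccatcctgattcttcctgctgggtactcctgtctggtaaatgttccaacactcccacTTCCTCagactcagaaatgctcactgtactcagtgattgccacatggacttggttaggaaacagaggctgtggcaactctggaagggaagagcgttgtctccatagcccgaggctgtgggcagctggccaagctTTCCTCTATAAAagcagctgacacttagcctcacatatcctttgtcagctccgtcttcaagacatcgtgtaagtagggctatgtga
S100a9: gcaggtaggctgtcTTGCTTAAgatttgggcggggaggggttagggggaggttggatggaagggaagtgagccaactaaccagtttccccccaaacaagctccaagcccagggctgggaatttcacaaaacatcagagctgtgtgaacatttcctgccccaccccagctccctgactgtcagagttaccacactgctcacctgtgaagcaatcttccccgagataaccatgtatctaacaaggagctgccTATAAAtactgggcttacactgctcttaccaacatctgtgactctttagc
S100a4: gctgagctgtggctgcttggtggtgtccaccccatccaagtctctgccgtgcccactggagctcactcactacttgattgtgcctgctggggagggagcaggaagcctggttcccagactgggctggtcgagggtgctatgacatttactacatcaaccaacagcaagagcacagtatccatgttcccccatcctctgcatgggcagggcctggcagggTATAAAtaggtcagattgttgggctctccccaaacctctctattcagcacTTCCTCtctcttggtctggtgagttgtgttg
S100a6: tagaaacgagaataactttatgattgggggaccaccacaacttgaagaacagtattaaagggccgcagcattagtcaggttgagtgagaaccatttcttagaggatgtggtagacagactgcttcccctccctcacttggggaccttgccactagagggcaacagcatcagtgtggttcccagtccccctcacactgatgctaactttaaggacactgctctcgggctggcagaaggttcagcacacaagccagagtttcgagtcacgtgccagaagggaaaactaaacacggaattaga
C/EBP proteins and PU.1 are transcription factors of myeloid cells. TTGCNNAA was in 10.8% of all 32851 promoter windows of this length, GAGGAA in 28.3% and TATAAA in 13.6%. The S100a8 window held GAGGAA at 170 and 36 bases before the start, the second match directly before a TATAAA, with no overlap. The S100a9 window held 1 TTGCNNAA and 1 TATAAA, the S100a4 window 1 GAGGAA and 1 TATAAA, and the S100a6 window none of the 3. These are letter matches, and binding was not measured.

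RNA was counted as unique molecular identifiers (UMIs), tags that mark single molecules, with a kit that reads 3′ ends. Total UMIs came to 57011537 for aged and 26384220 for young brain and to 40628623 for aged and 39866955 for young spleen. In the same order 10244, 3561, 5232 and 6243 cells were kept, with medians of 2133, 2316, 4573 and 4092 UMIs per cell. In the young brain library, 5048 of 8717 cells carried a barcode with more UMIs in the aged spleen library and were left out; 4719 called barcodes were shared by those libraries against 7.02 expected by chance, and 1 was shared afterwards. The aged brain and aged spleen libraries still shared 41 cell barcodes, and with every barcode that had more UMIs in any other library left out, each count of members given below was the same. The aged spleen library serves in both its contrasts, with the young spleen and with the aged brain. Levels are UMIs per 1e6 UMIs of a class in a library (CPM), with 95% Poisson intervals, and each ratio has a 95% binomial interval. No group had a second library, so nothing was tested, each difference is one between libraries, and intervals cover counting error only. Ratios of at least 1.5 or at most 1/1.5 were counted where both libraries together had 50 or more UMIs of the gene, in classes of at least 15 cells in both. Names such as "neutrophil-like" rest on marker genes, and the members themselves were kept out of the genes used for clustering.

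The classes differed widely in cell number. Neutrophil-like cells (cluster 19) came to 72 for aged and 6 for young brain and to 40 for aged and 47 for young spleen, and all 11 neutrophil markers were detected in each library. Monocyte or macrophage-like cells (cluster 21) numbered 38, 4, 17 and 33, NK-like cells (cluster 4) 16, 5, 712 and 1713, T-like cells (clusters 6 to 9) 99, 15, 1791 and 1769, and B-like cells 1, 0, 1855 and 2308, in the same order of libraries. Border macrophage-like cells, the macrophages of meninges and vessel walls (cluster 5), numbered 871 in the aged brain and 231 in the young brain, and microglia-like cells 6041 and 2562. The brain NK-like and T-like groups are therefore small, and 49 of the 99 aged brain T-like cells lacked UMIs of the T cell receptor complex genes Cd3d, Cd3e and Cd3g, 23 of them with a UMI of the NK receptor Ncr1. Free RNA, the content of barcodes with at most 100 UMIs, made up an estimated 17.7% of the UMIs of microglia-like cells in the aged brain and 8.22% in the young brain, and 3.37% of those of NK-like cells in aged and 3.29% in young spleen. The estimate rests on hemoglobin genes and Ttr, the leading gene of ependymal or choroid-like cells, and is uncertain. In microglia-like cells of the aged brain S100a8 was at 49.2 CPM against 720 CPM in free RNA, less than a share of 17.7% would give. A subtraction by these shares can remove too much.

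**Figure D1:**
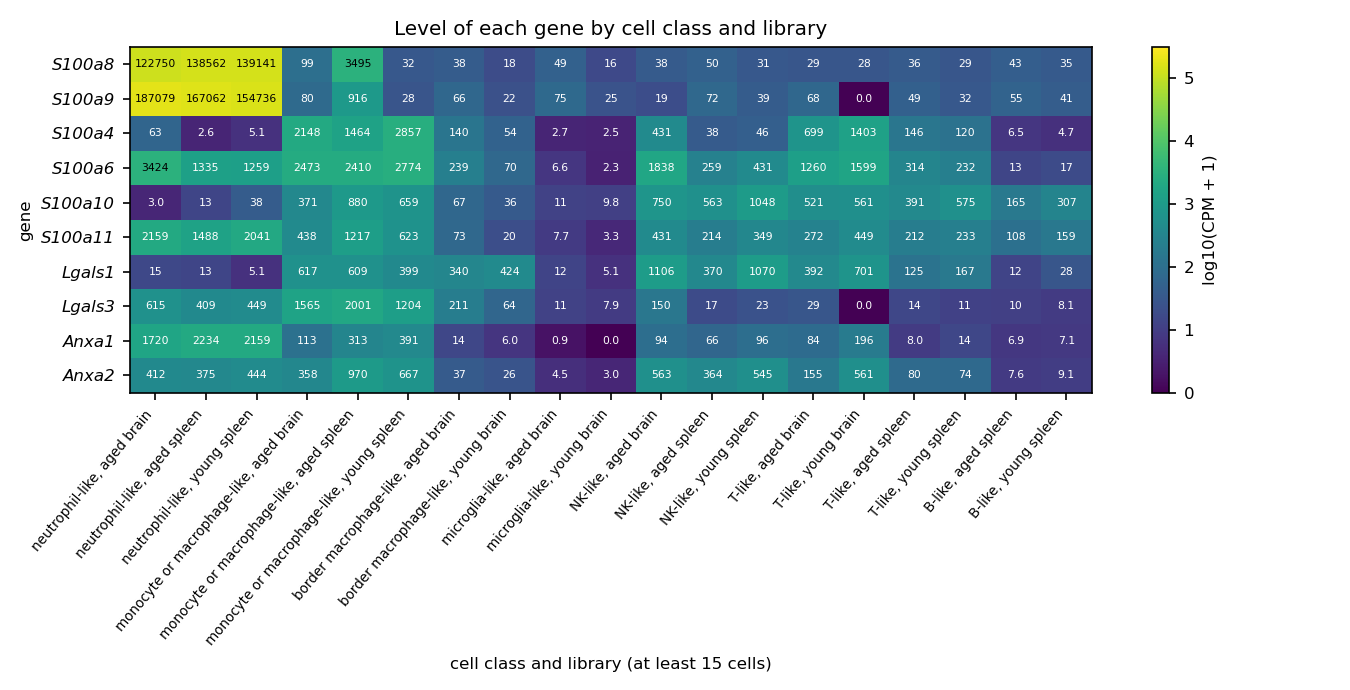
Level of the 10 genes (y axis, one row each) in each cell class and library of at least 15 cells (x axis), coloured by log10(CPM + 1), with the CPM written in each field. S100a8 and S100a9 are at 122750 CPM or more in the 3 neutrophil-like groups and, outside them, reach 3495 and 916 CPM at most, in monocyte or macrophage-like cells of the aged spleen.

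S100a8 and S100a9, the calprotectin subunits, were neutrophil genes in all 4 libraries. S100a8 stood at 122750 CPM in neutrophil-like cells of aged brain and 176637 CPM in the 6 of young brain, and at 138562 CPM in those of aged spleen and 139141 CPM in those of young spleen. S100a9 stood at 187079, 212752, 167062 and 154736 CPM in the same order. Every neutrophil-like cell held both, and S100a8 made up 12.3% to 17.7% and S100a9 15.5% to 21.3% of a library's neutrophil UMIs. The aged over young ratio in spleen was 0.996 (0.984 to 1.01) for S100a8 and 1.08 (1.07 to 1.09) for S100a9, and the aged brain over aged spleen ratio was 0.886 (0.875 to 0.897) and 1.12 (1.11 to 1.13). None of these reached 1.5-fold. For each S100a8 UMI there were 1.52 S100a9 UMIs in aged and 1.20 in young brain, and 1.21 in aged and 1.11 in young spleen.

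Outside neutrophil-like cells both genes were low. In NK-like, T-like, B-like, border macrophage-like and microglia-like groups of at least 15 cells, S100a8 lay between 15.7 CPM (microglia-like, young brain) and 49.99 CPM (NK-like, aged spleen), against 720 to 2307 CPM in the free RNA of the 4 libraries. S100a9 lay between 18.8 and 75.1 CPM in those groups, apart from T-like cells of the young brain, with 0 UMIs in 15 cells. B-like cells held S100a8 in 17.4% of cells in the aged spleen (median 4148 UMIs per cell), close to the 17.1% of NK-like cells there (median 4514 UMIs). The part of free RNA in these shares was not tested. In the aged spleen, monocyte or macrophage-like cells had 580 S100a8 UMIs, and 1 cell held 347 and another 156 of them. The 6 cells there with more than 10 S100a8 UMIs also gave 13 detections of the neutrophil markers, and the other 11 cells held 5 S100a8 UMIs together. One cell held 94.1% of the S100a9 UMIs of that group. The group held 0.262 S100a9 UMIs for each S100a8 UMI, against 1.21 in neutrophil-like cells and 0.988 in free RNA of the aged spleen. Where these UMIs came from was not tested.

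**Figure D2:**
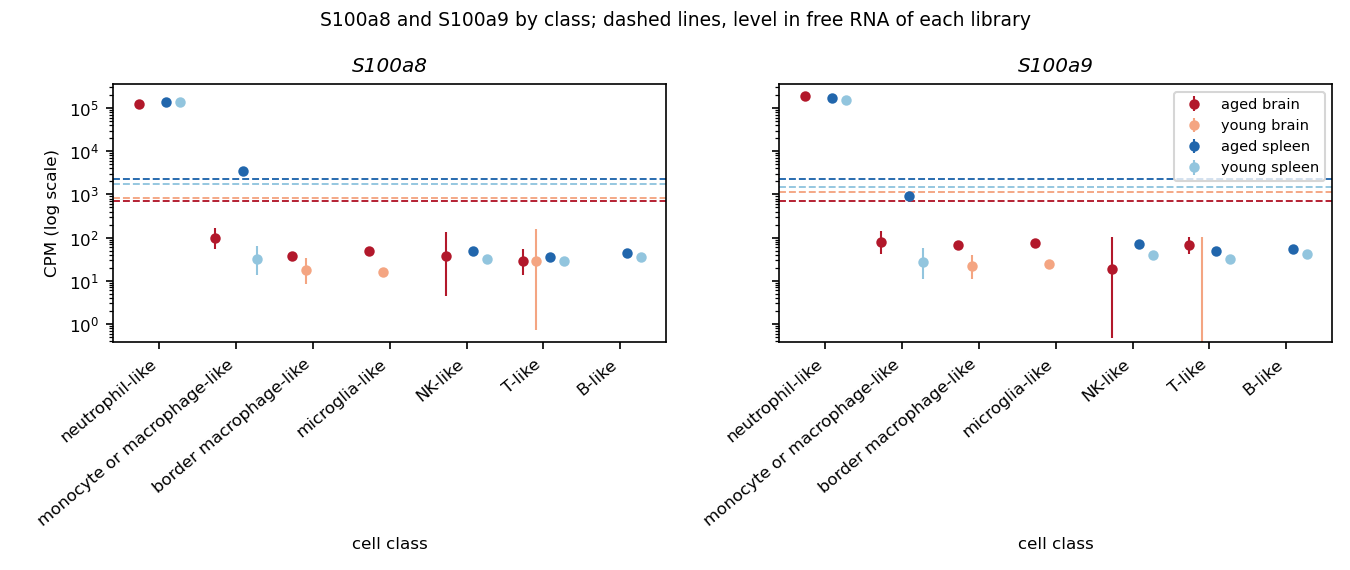
CPM of S100a8 and S100a9 (y axis, log scale) in each class (x axis) of the 4 libraries, with 95% counting intervals; dashed lines mark the level in the free RNA of each library. All groups other than neutrophil-like cells lie below these lines for both genes, except S100a8 in monocyte or macrophage-like cells of the aged spleen; S100a9 in T-like cells of the young brain was 0 and has only its interval.

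S100a4, S100a6 and Lgals3 were high in monocyte or macrophage-like cells. S100a4, a regulator of cell motility, was at 2148 CPM in the aged brain, 1464 CPM in the aged spleen and 2857 CPM in the young spleen, and at 1037 CPM in the 4 cells of the young brain. S100a6 was at 2473, 2410 and 2774 CPM, and Lgals3 at 1565, 2001 and 1204 CPM, in the aged brain, aged spleen and young spleen. In each library with at least 15 such cells, Lgals3 was found in 90.9% or more of them. S100a4 and Lgals3 were themselves among the 10 leading genes of that cluster. Neutrophil-like cells separated the pair: S100a6 was at 3424 CPM in the aged brain, 1335 CPM in the aged spleen and 1259 CPM in the young spleen, whereas S100a4 was at 62.7, 2.64 and 5.13 CPM, and all 21 of its UMIs in the aged brain came from 1 cell. Dendritic-like cells (cluster 10), antigen-presenting cells, held S100a4 at 809 CPM in the aged spleen and 1381 CPM in the young spleen. B-like cells were lowest among the splenic lymphocytes, with S100a4 at 6.53 CPM in aged and 4.68 CPM in young spleen and S100a6 at 13.2 and 17.3 CPM.

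The annexins and their S100 partners split by class. S100a10, which pairs with annexin A2, was a gene of lymphocytes and monocytes: 563 CPM in NK-like cells, 391 CPM in T-like cells and 165 CPM in B-like cells of the aged spleen, against 1048, 575 and 307 CPM in the same classes of the young spleen. It was nearly missing from neutrophil-like cells, with 2.99 CPM (1 UMI) in the aged brain, 13.2 CPM in the aged spleen and 38.5 CPM in the young spleen. Anxa2 did not follow it there, since neutrophil-like cells held 412, 375 and 444 CPM in those libraries. S100a11 and Anxa1, which encode the other pair, were both high in neutrophil-like cells, at 2159, 1488 and 2041 CPM and at 1720, 2234 and 2159 CPM in the same order. Anxa1 was low in splenic T-like cells (8.05 CPM in aged and 13.7 CPM in young spleen) and B-like cells (6.88 and 7.12 CPM), levels below the 32.9 and 38.9 CPM of free RNA. In NK-like cells it stood at 65.7 CPM in aged and 96.4 CPM in young spleen.

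The galectins parted in neutrophils and NK cells. Lgals1 was nearly missing from neutrophil-like cells, at 14.9 CPM in the aged brain, 13.2 CPM in the aged spleen and 5.13 CPM in the young spleen. Lgals3 in the same neutrophil-like groups was at 615, 409 and 449 CPM. In NK-like cells Lgals1 was at 370 CPM in aged and 1070 CPM in young spleen, whereas Lgals3 was at 17.2 CPM in aged and 23.1 CPM in young spleen, below the 42.0 and 38.9 CPM of free RNA. An unnamed low-RNA splenic cluster led by Hmox1, Vcam1 and Spic, genes of heme breakdown and red pulp macrophages, also held Lgals3, at 740 CPM in aged (55 cells) and 530 CPM in young spleen (115 cells).

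In the spleen, age went with lower Lgals1 and S100a10 in NK-like cells, the cytotoxic innate lymphocytes. Lgals1 was at 370 CPM (349 to 391) in aged and 1070 CPM (1046 to 1094) in young spleen, a ratio of 0.346 (0.325 to 0.367), and 56.5% of aged against 88.3% of young NK-like cells held a UMI. In B-like cells, a background for such shares, Lgals1 was found in 4.31% and 9.10% of cells, at medians of 4148 and 3755 UMIs per cell, against 4514 and 3963 UMIs in NK-like cells. After thinning each cell to 1000 UMIs the shares in NK-like cells were 26.2% in aged and 59.7% in young spleen. S100a10 (563 against 1048 CPM) had a ratio of 0.537 (0.511 to 0.565), S100a6 (259 against 431 CPM) of 0.601 (0.556 to 0.648) and S100a11 (214 against 349 CPM) of 0.613 (0.563 to 0.666). Anxa2 (364 against 545 CPM, ratio 0.668) and Anxa1 (ratio 0.681) lay just short of the 1.5-fold line, with S100a4 (37.9 against 46.4 CPM, ratio 0.816) and Lgals3 (ratio 0.742) closer to 1. The intervals of S100a4 (0.660 to 1.004) and Lgals3 (0.540 to 1.01) include 1, and S100a4 turned to 1.03 under a mitochondrial limit of 5% and at resolution 2.0. In these cells S100a6 lay below its free RNA level (414 CPM in aged and 486 CPM in young spleen), as did S100a4 (110 and 138 CPM). The part of free RNA was not tested beyond a subtraction. Other genes of the class moved too: the 10 NK markers summed to 9411 CPM in aged and 14241 CPM in young spleen, and the 11 monocyte or macrophage markers to 209 and 538 CPM, all detected at both ages but for 1 monocyte marker in the aged spleen. Their part in these ratios was not tested. S100a8 and S100a9, below their free RNA levels in these cells, had ratios of 1.60 and 1.85, and their free RNA levels were 2307 and 2279 CPM in the aged against 1697 and 1466 CPM in the young spleen.

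Of the 8961 genes compared in NK-like cells, 6.52% were higher and 11% lower by 1.5-fold in the aged spleen; 2 of the 10 members were higher and 4 lower. The median log2 ratio was -0.57 over the 10 members and -0.13 over all genes. Among all genes, 0.446% had a ratio as low as Lgals1 and 3.66% one as low as S100a10. The members were chosen with this contrast known, so nothing is read from these counts. The ratios of Lgals1, S100a10 and S100a6 stayed past 1.5-fold in all 16 alternatives tried, at 0.316 to 0.377, 0.520 to 0.586 and 0.556 to 0.655. A 2-fold call, no filter on low counts and the leaving out of T-like cells without a Cd3 UMI cannot change these ratios.

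**Figure D3:**
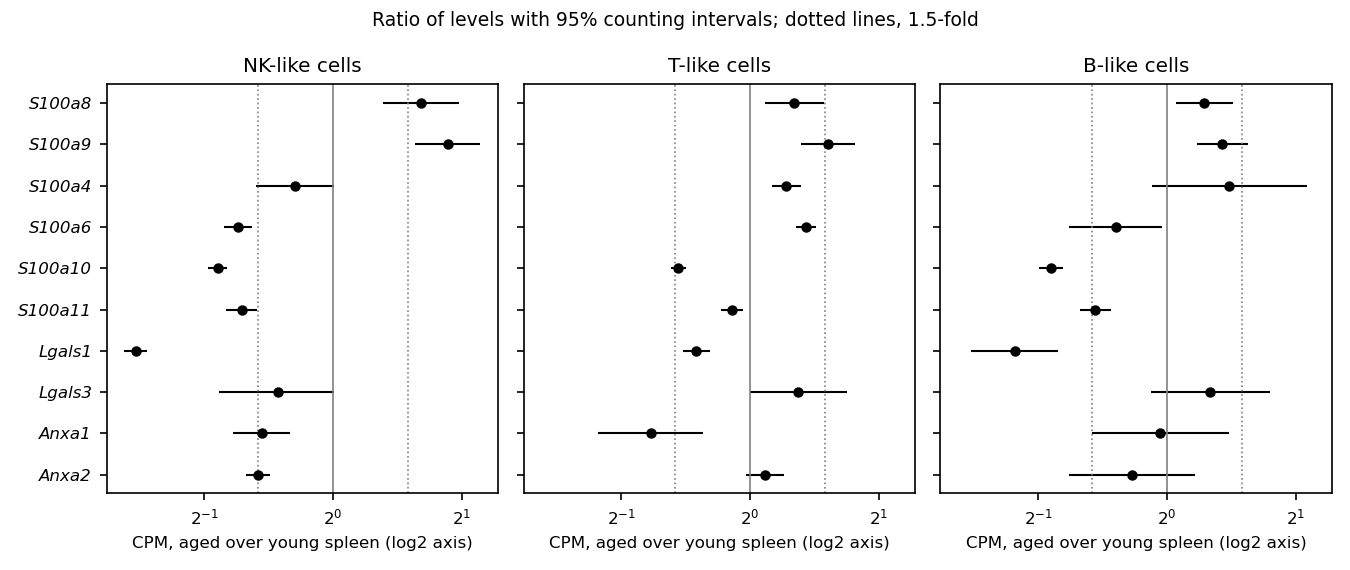
Ratio of CPM, aged over young spleen (x axis, log2 scale), of the 10 genes (y axis) in NK-like, T-like and B-like cells, with 95% counting intervals and dotted lines at 1.5-fold. Lgals1 in NK-like cells (0.346) lies farthest to the left, and S100a10 is left of the line for equal levels in all 3 classes.

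B-like cells, the lineage of antibody-producing cells, also held less S100a10 in the aged spleen. S100a10 was at 165 CPM in aged and 307 CPM in young spleen, a ratio of 0.537 (0.503 to 0.573), and S100a11 at 108 and 159 CPM, a ratio of 0.680 (0.626 to 0.739). Lgals1 was at 12.3 and 28.0 CPM, a ratio of 0.441 (0.348 to 0.556); these levels lie under the 97.1 CPM of free RNA in aged and 286 CPM in young spleen, and the share of free RNA in this ratio was not tested beyond a subtraction that left 0.528. Of 9521 genes, 5.35% were higher and 9.41% lower by 1.5-fold, and of the members 0 were higher and 2 lower. Naming classes from marker UMIs per cell moved the Lgals1 ratio of B-like cells to 0.804, while that of S100a10 stayed within 0.466 and 0.585 over 16 alternatives.

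T-like cells had ratios closer to 1 as a class, while their clusters went in different directions. Over the class, S100a10 was at 391 CPM in aged and 575 CPM in young spleen (ratio 0.681, 0.654 to 0.709), S100a6 at 314 and 232 CPM (1.35, 1.28 to 1.43), S100a4 at 146 and 120 CPM (1.22, 1.13 to 1.32) and Lgals1 at 125 and 167 CPM (0.750, 0.697 to 0.807). Of 9956 genes, 7.91% were higher and 8.53% lower by 1.5-fold, and of the members 1 was higher (S100a9, 1.52, below free RNA) and 1 lower (Anxa1, 0.588, below free RNA). The class levels of S100a6 also lay below free RNA (414 CPM in aged and 486 CPM in young spleen). The clusters held 536 and 465 cells (cluster 6), 506 and 527 cells (cluster 7), 201 and 637 cells (cluster 8) and 548 and 140 cells (cluster 9) in the aged and young spleen, and in the class ratios cluster make-up and levels inside clusters cannot be told apart.

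Cluster 6, led by Ly6c2, Cd7, Trdc and Klrc1, genes of memory, gamma-delta and NK-like T cells, differed with age in several members. There S100a4 was at 105 CPM in aged and 170 CPM in young spleen (ratio 0.616), S100a6 at 319 and 503 CPM (0.634), S100a10 at 358 and 631 CPM (0.568) and Lgals1 at 127 and 280 CPM (0.453). S100a11 (0.627) and Anxa1 (0.520) were also below 1, Anxa2 was at 0.786 and Lgals3 at 1.10, and S100a9, below its free RNA level, was at 1.72. Cluster 7, led by Dapl1, Cd8b1 and Lef1, genes of naive CD8 T cells, had S100a4 at 21.5 and 12.4 CPM (1.74, 1.15 to 2.68), S100a6 at 98.3 and 36.7 CPM (2.68, 2.14 to 3.36) and Anxa2 at 22.1 and 8.92 CPM (2.48, 1.56 to 4.04). In cluster 8, led by Cxcr6, Cd226 and Zbtb16, a factor of NKT cells, S100a4 was at 190 and 94.0 CPM (2.02, 1.67 to 2.43), S100a6 at 311 and 116 CPM (2.68, 2.30 to 3.13) and Lgals3 at 23.7 and 8.49 CPM (2.79, 1.54 to 5.06). Cluster 9, led by Ctla4, Izumo1r and Foxp3, genes of regulatory and activated CD4 T cells, held S100a4 at 313 and 441 CPM (0.709), Lgals1 at 178 and 412 CPM (0.433) and S100a10 at 568 and 942 CPM (0.603). S100a6 there was at 542 and 493 CPM (1.10, 0.985 to 1.23). S100a10 was lower in the aged spleen in all 4 clusters, at ratios of 0.568 to 0.751, and S100a4 was higher in 2 clusters and lower in 2. Free RNA of the aged and young spleen held S100a4 at 110 and 138 CPM and S100a6 at 414 and 486 CPM. It held Anxa2 at 78.7 and 153 CPM and Lgals3 at 42.0 and 38.9 CPM. The levels of S100a4, S100a6 and Anxa2 in cluster 7 lay below these at both ages. So did those of S100a6 and Lgals3 in cluster 8. The part of free RNA and the differences between clusters were not tested.

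**Figure D4:**
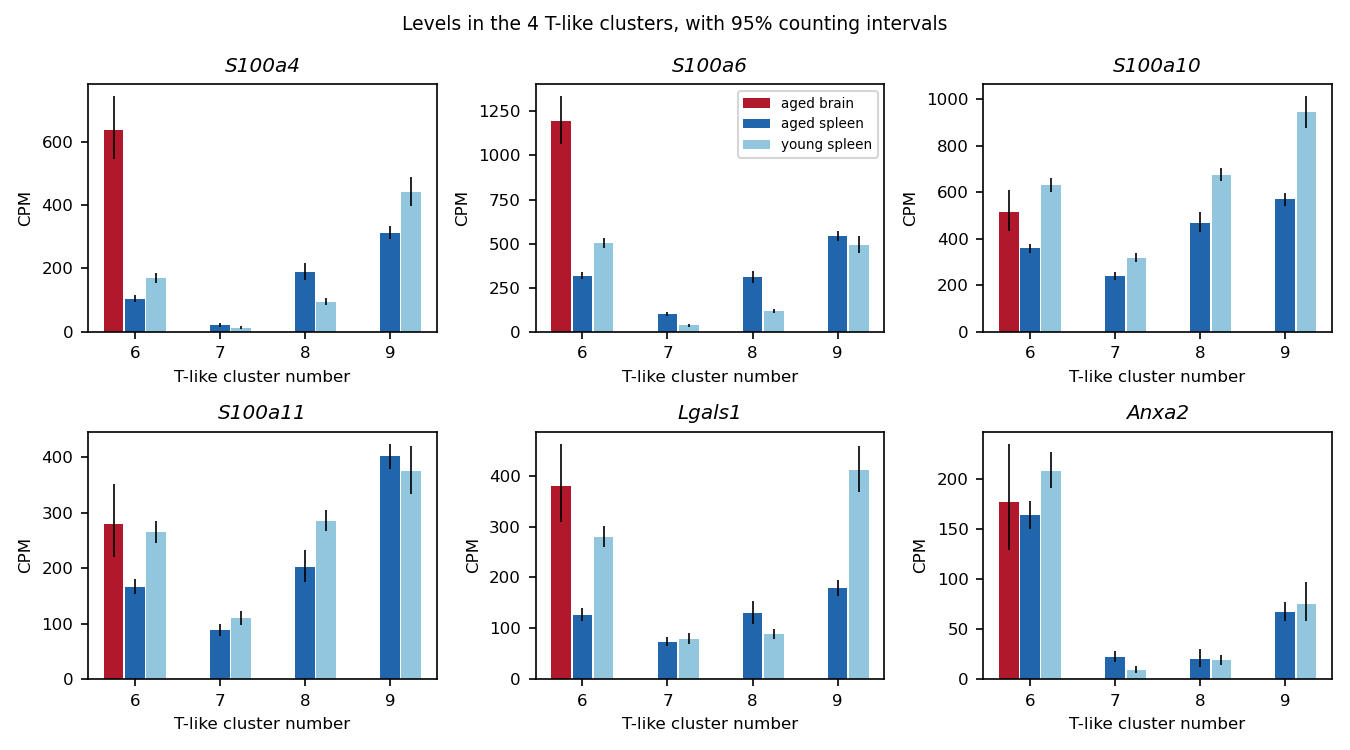
CPM (y axis, from 0) of 6 genes in the 4 T-like clusters (x axis), bars for aged brain (cluster 6 alone, where it has at least 15 cells), aged spleen and young spleen with 95% counting intervals. S100a6 in the aged against the young spleen is lower in cluster 6 (319 against 503 CPM) and higher in clusters 7 (98.3 against 36.7 CPM) and 8 (311 against 116 CPM). Of these levels, all but the 503 CPM lie below S100a6 in free RNA (414 CPM in aged and 486 CPM in young spleen).

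Splenic T-like cells with an S100a4 UMI more often held S100a6 and Lgals1 as well. In the aged spleen, S100a6 was detected in 73.8% of the 343 cells with an S100a4 UMI (median 5513 UMIs) and in 29.7% of the 1448 without (median 5753 UMIs). In the young spleen these shares were 62.9% of 267 cells and 21.4% of 1502 cells (medians 5254 and 5013 UMIs). Lgals1 went with S100a4 in the same way, in 51.6% against 21.9% of cells in the aged and 54.7% against 28.2% in the young spleen. The other members compared did so too, for example S100a11 (77.8% against 51.2%) and Anxa2 (40.2% against 23.1%) in the aged spleen. Depth was close between the cells compared. The clusters were pooled here. In the aged spleen S100a4 and S100a6 were at 21.5 and 98.3 CPM in cluster 7 and at 313 and 542 CPM in cluster 9. The part of cluster make-up in these shares was not tested.

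Splenic neutrophil-like cells showed no member past 1.5-fold with age. Of the 7 members with enough UMIs, 0 were higher and 0 lower, against 9.25% and 10.3% of 1729 genes, and the ratios ran from 0.729 (S100a11) to 1.08 (S100a9). Monocyte or macrophage-like cells, 17 aged against 33 young, had 5 members higher and 1 lower, against 17.1% and 11.9% of 1347 genes. S100a8 and S100a9 were 2 of the 5, at ratios of 111 and 33.2, and rest on the few cells described above. The others were S100a11 (1217 against 623 CPM, ratio 1.95), Lgals3 (2001 against 1204 CPM, 1.66) and Lgals1 (609 against 399 CPM, 1.53), and S100a4 was lower (1464 against 2857 CPM, 0.513). With doublets kept, the ratios of S100a11, Lgals3 and Lgals1 turned to 0.822, 0.614 and 0.461, so these 3 depend on which barcodes are kept.

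In brain, border macrophage-like cells held more S100a6, S100a11, Lgals3 and S100a4 in the aged library. S100a6 was at 239 CPM in aged and 69.7 CPM in young brain (ratio 3.43, 2.44 to 4.98), S100a11 at 72.7 and 19.9 CPM (3.65, 1.94 to 7.76), Lgals3 at 211 and 63.7 CPM (3.31, 2.31 to 4.90) and S100a4 at 140 and 53.8 CPM (2.60, 1.75 to 4.00). S100a10 was at 66.6 and 35.9 CPM (1.86, 1.14 to 3.22). Lgals1 went the other way, at 340 CPM in aged and 424 CPM in young brain (0.802, 0.688 to 0.938). The 8 border macrophage markers summed to 5021 CPM in aged and 7664 CPM in young brain, and the 10 microglia markers to 6620 and 4697 CPM, all of them detected at both ages, and their part in these ratios was not tested. Of 6525 genes, 15.7% were higher and 9.49% lower by 1.5-fold; of 9 members with enough UMIs 7 were higher and 0 lower, and 2 of the 7 were S100a8 and S100a9, at 0.0533 and 0.093 of their free RNA level in the aged brain. S100a10 and S100a11 were close to their free RNA levels there (63.6 and 55.5 CPM). The estimated free RNA share was 16.5% in aged and 8.90% in young brain, and that of the aged brain exceeds the levels of S100a8 and S100a9 just given. With free RNA subtracted the ratio of S100a6 was 3.88 and that of S100a11 was 4.61, values that are uncertain for this reason. In the young brain 1 cell held 48.1% of the S100a4 and 51.4% of the S100a6 UMIs, and without the top cell of each library the ratios were 4.596 and 6.62. The S100a4 ratio went below 1.5 under a mitochondrial limit of 5% (1.29) and a clustering resolution of 2.0 (1.40), while those of S100a6 and Lgals3 stayed above it in 15 alternatives each, at 1.97 to 6.62 and 1.78 to 4.39.

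Within this class the members were uneven between cells. S100a4 was found in 62 of 871 border macrophage-like cells of the aged brain and 5 of 231 of the young brain. Among the 62 cells, S100a6 was at 1616 CPM and Lgals3 at 738 CPM, against 42.8 and 136 CPM in the other 809 cells. The 62 cells were deeper, with medians of 4464 against 2174 UMIs per cell. They had a summed level of the 8 border macrophage markers of 900 CPM, against 5609 CPM in the others, with Mrc1 at 374 against 1769 CPM. The 11 monocyte or macrophage markers summed to 7206 against 10230 CPM, with the lysozyme gene Lyz2 at 4641 against 6881 CPM, and the 10 microglia markers to 4217 against 6962 CPM. In the other direction, the 62 cells had more of the monocyte receptor Ccr2 (1009 against 295 CPM), of Cd209a (441 against 109 CPM) and Flt3 (42.3 against 3.53 CPM), genes of dendritic cells, and of the MHC class II chain Cd74 (15009 against 6748 CPM). The border macrophage-like class of the aged brain held cells with S100a4 that were low in its defining markers, and whether they belong to another type was not tested. In the cells without S100a4, S100a6 was at 42.8 CPM in aged and 8.24 CPM in young brain and Lgals3 at 136 and 37.1 CPM. Of these cells 5.19% in aged and 1.33% in young brain held S100a6, so its young value rests on few cells. Both S100a6 levels lie below free RNA (111 and 85.3 CPM), whereas those of Lgals3 lie above it (26.6 and 31.5 CPM).

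Microglia-like cells held little of any member. The highest levels of members other than the calprotectin genes were Lgals1 at 12.5 CPM, S100a10 at 11.4 CPM and Lgals3 at 11.03 CPM in the aged brain, and S100a10 at 9.79 CPM, Lgals3 at 7.93 CPM and Lgals1 at 5.13 CPM in the young brain. In the aged brain each of the 10 members was at 0.0581 to 0.414 of its free RNA level, and Anxa1 had 0 UMIs in the 2562 cells of the young brain, which allows up to 0.466 CPM. By ratio, 6 of 9 members were higher and 0 lower in the aged brain, against 12.9% and 4.66% of 10900 genes, for example S100a6 at 6.56 against 2.33 CPM (2.81) and Lgals1 at 12.5 against 5.13 CPM (2.43). The estimated free RNA share of these cells was also higher in the aged brain (17.7% against 8.22%). The part of free RNA in these ratios was not tested beyond a subtraction, which took more than some members held. After it 2 members gave a ratio, Lgals3 (1.32) and S100a10 (0.0374), and nothing is read from them. Most aged cells were in cluster 0 (5714 of 6041) and most young cells in cluster 3 (2389 of 2562). Lgals3 stood apart in cluster 15, led by Lpl, Cxcl10, Ccl12 and Ifit3 with Spp1, genes of damage-associated and interferon-responsive microglia: 179 CPM in its 156 aged cells and 23.2 CPM in its 104 young cells, a ratio of 7.71 (3.58 to 19.8), against free RNA at 26.6 and 31.5 CPM. The ratio rests on 83 aged and 7 young UMIs. In it, the mix of these states and the levels inside them cannot be told apart.

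**Figure D5:**
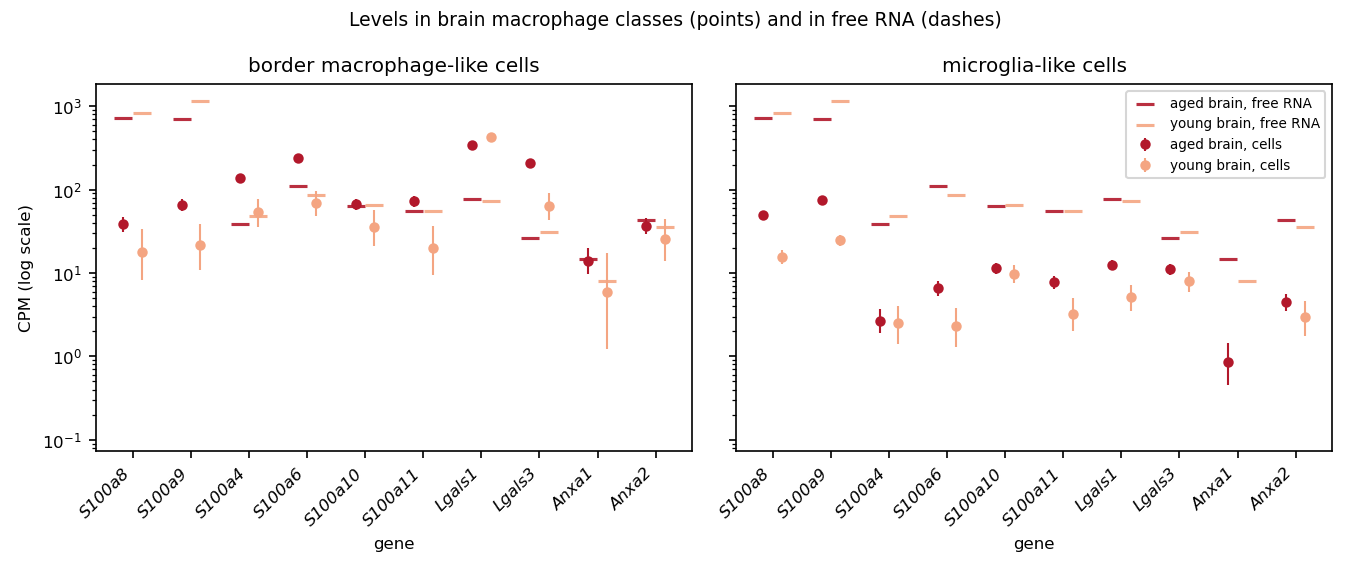
CPM (y axis, log scale) of the 10 genes in border macrophage-like and microglia-like cells of the aged and young brain, points with 95% counting intervals, and their level in free RNA (dashes). In microglia-like cells every point lies below its dash; Anxa1 in the young brain was 0 there and is not drawn.

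Lymphocytes of the aged brain held far more S100a4 and S100a6 than those of the aged spleen. In NK-like cells S100a4 was at 431 CPM in the aged brain and 37.9 CPM in the aged spleen, a ratio of 11.4 (6.97 to 17.9), and S100a6 at 1838 and 259 CPM, a ratio of 7.09 (5.70 to 8.75). Lgals1 was at 1106 and 370 CPM (2.99, 2.26 to 3.89), S100a11 at 431 and 214 CPM (2.02, 1.27 to 3.05) and Anxa2 at 563 and 364 CPM (1.54, 1.04 to 2.22). The Anxa2 ratio stayed past 1.5-fold in 8 of 14 alternatives and turned to 0.723 at resolution 2.0 and to 0.842 at a minimum of 1000 UMIs per cell. Anxa1 was at 93.8 and 65.7 CPM (1.43, 0.459 to 3.38). Lgals3 was at 150 and 17.2 CPM, a ratio of 8.75, but 1 brain cell held 87.5% of its 8 UMIs, and the ratio without the top cells was 1.38. Without the top cells the S100a6 ratio was 5.24 and that of S100a4 9.57. The aged spleen levels of S100a6 and S100a4 lay below free RNA there (414 and 110 CPM). Of 6526 genes, 22.5% were higher and 20.8% lower by 1.5-fold in the 16 brain cells, and of the members 6 were higher and 1, S100a9 with 1 UMI in brain, lower.

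T-like cells also held more S100a4, S100a6 and Lgals1 in the aged brain, and more Anxa1. S100a4 was at 699 CPM in the aged brain and 146 CPM in the aged spleen (4.79, 4.13 to 5.52), S100a6 at 1260 and 314 CPM (4.01, 3.60 to 4.46), Lgals1 at 392 and 125 CPM (3.13, 2.58 to 3.77) and Anxa1 at 84.2 and 8.05 CPM (10.5, 6.47 to 16.4). S100a4 was found in 68.7% of T-like cells in the aged brain and 19.2% in the aged spleen, at medians of 2739 and 5700 UMIs per cell, and in 1.89% of splenic B-like cells. Of 9059 genes, 28.6% were higher and 21.2% lower by 1.5-fold, and of the members 6 were higher and 0 lower. Within cluster 6, which held 81 of the 99 brain cells, the ratios were 6.08 for S100a4, 3.75 for S100a6, 3.003 for Lgals1 and 5.91 for Anxa1, and with cells lacking a Cd3 UMI left out of the class they were 3.61, 4.74, 3.81 and 5.34. S100a10 (521 against 391 CPM) and S100a11 (272 against 212 CPM) were closer, at 1.33 and 1.28.

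Markers of microglia moved with the brain lymphocytes. The 10 microglia markers summed to 1875 CPM in NK-like and 4847 CPM in T-like cells of the aged brain, against 34.0 and 28.9 CPM in the aged spleen, and all 10 were detected in both brain groups. Microglia-like cells of the aged brain themselves held S100a4 at 2.69 CPM, S100a6 at 6.56 CPM, Lgals1 at 12.5 CPM and Anxa1 at 0.853 CPM. The free RNA share was 12.4% in NK-like and 14.7% in T-like cells of the aged brain, against 3.37% and 2.71% in the aged spleen, and the part of either in these ratios was not tested. The border between NK-like and T-like cells of the brain was not stable, with 72 and 40 such cells in the aged brain at a minimum of 1000 UMIs per cell. S100a4 and S100a6 stayed at least 3.06-fold higher in both classes in every alternative that gave a value, whereas the Anxa2 ratio of T-like cells ran from 0.507 to 2.96.

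In neutrophil-like cells of the aged brain, S100a6 was at 3424 CPM against 1335 CPM in the aged spleen (2.57, 2.31 to 2.85), and Lgals3 at 615 against 409 CPM (1.504, 1.22 to 1.87). Those 2 of 7 members were higher and 0 lower, against 17% and 19.6% of 1578 genes, and the S100a6 ratio ran from 2.42 to 3.31 over 16 alternatives. Monocyte or macrophage-like cells had 0 members higher and 6 lower in the aged brain, against 16.5% and 24% of 1014 genes. S100a10 was at 371 against 880 CPM (0.422), S100a11 at 438 against 1217 CPM (0.359), Anxa2 at 358 against 970 CPM (0.369) and Anxa1 at 113 against 313 CPM (0.360), while S100a6 (1.03) and Lgals1 (1.01) were level. The other 2 of the 6 were S100a8 (0.0285) and S100a9 (0.0869), which rest on the few aged spleen cells described above, and without the top cell of each library the S100a9 ratio was 1.05. With doublets kept the ratios of S100a10, S100a11, Anxa1 and Anxa2 turned to 2.29, 1.05, 1.48 and 1.84. The 10 microglia markers moved with both classes, at 3072 CPM in neutrophil-like cells of the aged brain against 79.1 CPM in the aged spleen, and at 3023 against 193 CPM in monocyte or macrophage-like cells. All 10 were detected in both brain groups, against 4 and 3 of them in those of the spleen. The free RNA share was 10.1% against 1.42% and 16.1% against 1.97% in the same classes. The part of either in these ratios was not tested.

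The young brain gave few lymphocytes. Its 15 T-like cells held S100a4 at 1403 CPM, S100a6 at 1599 CPM and Lgals1 at 701 CPM, against 120, 232 and 167 CPM in the young spleen, ratios of 11.7, 6.89 and 4.20. Of these cells 14 were in cluster 6, which held 465 of the 1769 young spleen cells. Cluster 6 of the young spleen held S100a4 at 170 CPM, S100a6 at 503 CPM and Lgals1 at 280 CPM. Of the 15 cells 6 had no Cd3 UMI, against 128 of the 1769. The 10 microglia markers summed to 2862 CPM against 31.6 CPM. The part of any of these in the ratios was not tested. Of 8793 genes, 27.2% were higher and 10.5% lower by 1.5-fold, and of 10 members 6 were higher and 0 lower. Against those 15 cells the aged brain had 0 of 6 members higher and 4 lower (22.9% and 17.9% of 934 genes), with S100a4 at 699 against 1403 CPM (0.499). In the young brain group 1 cell held 30% of the S100a4 UMIs, and the top cell for S100a6 held 28.1% and that for Lgals1 36% of its UMIs. The 5 NK-like cells of the young brain held S100a6 at 1892 CPM and Lgals1 at 3536 CPM and were too few to compare.

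The other genes of the families and their partners gave fewer values. In NK-like cells of the spleen, 2 of the 11 other S100 genes had enough UMIs, and both were lower in the aged spleen, where 11% of all genes were: S100a13, a factor of unconventional secretion (180 against 278 CPM, ratio 0.646), and S100a1 (11.8 against 20.7 CPM, 0.571). Of 4 other galectins and 4 other annexins with enough UMIs there, none was past 1.5-fold, and of 10 cytoskeletal genes of effector lymphocytes 3 were lower and 0 higher, among them Vim (385 against 684 CPM, 0.563) and Emp3 (285 against 517 CPM, 0.551). In B-like cells, where 9.41% of all genes were lower, 5 of those 10 were lower and 0 higher, among them Vim (139 against 249 CPM, 0.558). In border macrophage-like cells, where 15.7% of all genes were higher and 9.49% lower, 6 of those 10 were higher in the aged brain and 1, Klf2, lower; Lsp1 was at 246 against 106 CPM (2.33). The other galectins differed in other classes. Of 4 with enough UMIs, 3 were lower and 0 higher in B-like cells of the aged spleen (9.41% and 5.35% of all genes). In splenic T-like cells 1 of 4 was higher and 1 lower with age (7.91% and 8.53% of all genes). In aged brain over aged spleen, 3 of 4 were higher and 0 lower in T-like cells (28.6% and 21.2% of all genes). Of 14 receptors and partners, 9 had enough UMIs in each splenic lymphocyte class. With age 1 was higher and 1 lower in NK-like cells, against 6.52% and 11% of all genes. In T-like cells 2 were higher and 0 lower (7.91% and 8.53% of all genes), and in B-like cells 1 and 0 (5.35% and 9.41%). In border macrophage-like cells 5 of 10 receptors and partners were higher and 1 lower, against 15.7% and 9.49% of all genes. Of 2 named among them after their values were seen, the formyl peptide receptor Fpr2, a receptor for annexin A1, was at 340 CPM in neutrophil-like cells of the aged brain and 280 and 297 CPM in those of the aged and young spleen. In splenic T-like cells Lag3, an inhibitory receptor reported to bind galectin-3, was at 36.5 CPM in aged and 5.52 CPM in young spleen (6.62, 4.94 to 9.02). Another annexin, Anxa3, was a gene of microglia-like cells, at 505 CPM in aged and 546 CPM in young brain.

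Across the 22 class-library groups of at least 50 cells, the members' nearest genes by Pearson's r of log2(CPM + 1), among 11344 genes, were often other members. S100a8 and S100a9 were nearest to each other (r = 0.985), then to the neutrophil granule genes Fcnb (0.968) and Mmp8 (0.965). S100a4 came nearest to S100a6 (0.847), S100a6 to Anxa2 (0.873) and Anxa1 to S100a11 (0.848). Lgals1 was nearest to Ccr2 (0.890), Lgals3 to the inhibitory receptor gene Lilrb4a (0.838), S100a10 to the lymphocyte GTPase gene Gimap4 (0.949) and S100a11 to Plp2 (0.925). These r describe patterns over groups that share 4 libraries and their depth. The only neutrophil-like group among them was that of the aged brain (72 cells). S100a8 was at 122750 CPM there and at 144 CPM or less in every other group. The r of S100a8 and S100a9 thus rest mostly on that group. Monocyte or macrophage-like cells, high in S100a4 and Lgals3, were too few to be included.

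The authors' deposited tables list marker genes per cluster of each library. In the authors' deposited table of the young spleen, Lgals1 was found in a fraction of 0.903 of the cells of a cluster led by Gzma, Ccl4 and Ccl3 and in 0.172 of other cells. In the authors' deposited table of the aged spleen, the fractions in and outside the cluster led by Gzma and Ccl4 were 0.516 and 0.129. In the authors' deposited table of the aged brain, S100a4 was found in a fraction of 0.583 of a cluster led by Ccl5, AW112010, Tmsb10 and Nkg7 and in 0.01 of other cells. These clusters were drawn by the authors in each library alone.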

How the data were processed

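Leukocytes sorted for high CD45 were profiled by droplet single-cell RNA sequencing (10x, 3′ ends) in 4 libraries, 1 per group. The deposited matrices hold whole-number counts of UMIs per gene and barcode, made with Cell Ranger 1.3.1 per the submitters' processing notes, which name GRCh38 as the build although the genes are those of mouse; the file headers name software version 3.1.0. Of 31053 gene identifiers, 31011 were found in GENCODE M21. The authors' deposited cluster tables hold p-values and average log fold changes, read here as natural log since no base is given and not printed, and the fraction of cells with each gene, which is.

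From the 6794880 barcodes of a matrix, cells were those past 10% of the 99th percentile over the 3000 largest barcodes or those differing from free RNA (at most 100 UMIs) at a false discovery rate of 0.01, with at least 500 UMIs, 250 genes and at most 10% mitochondrial UMIs. Young brain barcodes with more UMIs in the aged spleen were left out. Simulated doublets scored each cell, and the top 0.8% per 1000 cells were removed, 1014 and 108 cells in aged and young brain and 240 and 347 cells in aged and young spleen. Clusters came from 2000 variable genes, 30 components, 15 neighbours and Leiden resolution 1.0, without integration, and were named from 19 marker lists. UMIs were summed per class and library and scaled to CPM. Thinning to 1000 UMIs per cell left out shallower cells. Ratios were compared by size, and the calculation was tested on simulated data. The named genes are all 10 members, the genes of 5 fixed lists for which values are given, and the 2 genes most like each member. Members and lists were chosen with earlier results of these data known. There were 13 alternative settings, with 3 more added after seeing the data. A call at 2-fold and no filter on low counts leave each ratio as it is. Leaving out T-like cells without a Cd3 UMI changes no other class. Tools were numpy 2.4.6, scipy 1.17.1, scikit-learn 1.9.0, igraph 0.11.9, leidenalg 0.10.2, pandas 2.3.3, numba 0.67.0 and matplotlib 3.10.9.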

Additional observations from a re-analysis of the deposited data

Results flagged for a closer look

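In the spleen some members went in opposite directions with age in different classes, each past 1.5-fold; the difference was not tested in any of these cases. S100a11 had an aged over young ratio of 1.95 in monocyte or macrophage-like cells and 0.613 in NK-like cells. Lgals1 had a ratio of 1.53 in monocyte or macrophage-like cells, against 0.346 in NK-like cells and 0.441 in B-like cells. The monocyte values rest on 17 aged and 33 young cells, and with doublets kept they turned to 0.822 for S100a11 and 0.461 for Lgals1, so that the directions were no longer opposite. The monocyte Lgals1 ratio stayed past 1.5-fold in 8 of 15 alternatives.

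Among T-like cells, S100a4 had a ratio of 1.74 in cluster 7 and 2.02 in cluster 8, against 0.616 in cluster 6. S100a6 had a ratio of 2.68 in cluster 7 and 2.68 in cluster 8, against 0.634 in cluster 6. The S100a6 levels of clusters 7 and 8 lay below free RNA (414 CPM in aged and 486 CPM in young spleen). Those of S100a4 in cluster 7 did too (110 and 138 CPM), and the part of free RNA was not tested. Cluster 8 held 201 aged and 637 young cells, and clusters 6 and 7 held similar numbers of aged and young cells.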

How the results depend on the processing

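No paired analysis was possible because each group has 1 library. Member and class pairs past 1.5-fold numbered 8 higher and 8 lower of 47 in aged over young spleen, 13 and 4 of 24 in aged over young brain, 14 and 7 of 37 in aged brain over aged spleen, and 6 and 0 of 10 in young brain over young spleen. The shares of all genes, by class, were 5.35% to 17.1% higher and 8.53% to 11.9% lower in the first contrast. They were 12.9% to 22.9% and 4.66% to 17.9% in the second, 16.5% to 28.6% and 19.6% to 24% in the third, and 27.2% and 10.5% in the last. Of the 8 higher in spleen, 5 were in monocyte or macrophage-like cells. The 2 in NK-like and 1 in T-like cells were S100a8 and S100a9. Over all 16 alternatives, 1392 of 1671 recomputed values stayed close, 253 moved and 26 reversed. The 1392 include 116 of 116 values under a 2-fold call and 116 of 116 with no filter on low counts. Neither setting can change a ratio, so these say nothing about stability. The causes of the changes were not tested.

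Counts of pairs moved as follows, each given with the number of pairs compared, which fell in several settings. Pairs that were not compared cannot be called, so a count of 0 then does not mean that calls were lost. A minimum of 1000 UMIs gave 1 lower of 10 in young brain over young spleen. A mitochondrial limit of 5% gave 0 lower of 18 in aged over young brain and 6 higher of 26 in aged brain over aged spleen. One of 20% gave 5 higher of 47 in aged over young spleen. With doublets kept there were 4 higher and 18 lower of 47 in aged over young spleen, 0 lower of 18 in aged over young brain and 4 lower of 37 in aged brain over aged spleen. With the shared young brain barcodes kept there were 2 higher of 47 in aged over young spleen and 31 higher and 0 lower of 41 in aged over young brain. There were then 4 lower of 37 in aged brain over aged spleen, and 3 higher and 19 lower of 40 in young brain over young spleen. Members let into the variable genes gave 8 higher of 27 in aged brain over aged spleen. Resolution 2.0 gave 3 higher and 7 lower of 17 in young brain over young spleen. Classes from marker UMIs gave 14 lower of 47 in aged over young spleen and 0 lower of 11 in aged over young brain. Thinned cells gave 4 higher of 31 in aged over young spleen, 8 higher and 1 lower of 14 in aged over young brain and 1 lower of 24 in aged brain over aged spleen. A 2-fold call gave 2 higher and 2 lower of 47 in aged over young spleen and 2 lower of 24 in aged over young brain. Free RNA subtracted gave 5 higher of 15 in aged over young brain. Among those added after seeing the data, T-like cells without a Cd3 UMI left out gave 0 lower of 18 in aged over young brain. The young brain then had 9 T-like cells, under the 15 needed. The T-like pairs, which held all 4 lower calls of that contrast, were therefore not compared. The top cell left out gave 4 higher of 46 in aged over young spleen and 2 lower of 24 in aged over young brain.

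These ratios reversed. With 1000 UMIs, Anxa2 in aged brain over aged spleen was 0.842 in NK-like and 0.863 in T-like cells, and at resolution 2.0 it was 0.723 and 0.507. With doublets kept, monocyte or macrophage-like cells had S100a11 0.822, Lgals1 0.461 and Lgals3 0.614 in aged over young spleen and S100a10 2.29, S100a11 1.05, Anxa1 1.48 and Anxa2 1.84 in aged brain over aged spleen, and Anxa2 in T-like cells was 0.632 there. With the shared barcodes kept, S100a9 in monocyte or macrophage-like cells was 0.357 in aged over young spleen and 1.5 in aged brain over aged spleen, where S100a10 was 1.07. T-like cells then had S100a4 5.19, S100a11 1.55, Lgals1 2.14 and Anxa2 1.73 in aged over young brain and S100a11 0.794 and Anxa1 0.531 in young brain over young spleen. With classes from marker UMIs, NK-like cells had S100a8 0.237 and S100a9 0.364 in aged over young spleen and S100a9 1.14 in aged brain over aged spleen, and S100a10 in monocyte or macrophage-like cells was 1.01 there. With the top cell left out, S100a9 in monocyte or macrophage-like cells was 1.05 in aged brain over aged spleen. Depth limits the brain lymphocytes most, with 53322 UMIs over the 16 NK-like cells of the aged brain and 35642 UMIs over the 15 T-like cells of the young brain.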

Other observations

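Other sorted cells of the brain held some members. In the aged brain, mural or fibroblast-like cells, 167 cells of the vessel wall, held S100a6 at 329 CPM, Lgals1 at 297 CPM and S100a11 at 221 CPM. Endothelial-like cells, which line vessels, held Anxa2 at 174 CPM and S100a11 at 122 CPM there. Ependymal or choroid-like cells held Lgals1 at 294 CPM in the aged and 287 CPM in the young brain. Platelet-like cells held S100a10 at 315 CPM in the aged brain (27 cells) and 707 CPM in the aged spleen (17 cells). Microglia-like cells held S100b, better known from astrocytes, at 3.28 CPM in the aged and 18.5 CPM in the young brain, and Lgals3bp, a secreted galectin-binding protein, at 270 CPM and 171 CPM. Astrocyte-like cells made up 0.703% of aged and 5.34% of young brain cells. Free RNA held Lgals3bp at 240 CPM in the aged and 69.9 CPM in the young brain. The part of free RNA in the levels of S100b and Lgals3bp was not tested.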
